A study of Bos taurus with 6 samples.

Results

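The miR-29 family is a small group of microRNAs (miRNAs) that were measured here in cultured bovine fat cells. Its members were taken by name, as every known miRNA row of the deposited table (rows of Type hairpin or mature) called 29a, 29b, 29c, 29d or 29e with either arm ending. This gave 6 rows of 771 known miRNA rows and of 2213 rows in all, namely bta-miR-29a, bta-miR-29b, bta-miR-29c, bta-miR-29d-3p, bta-miR-29d-5p and bta-miR-29e. The prefix bta-, for cattle, is dropped below. The table writes miR-29e as a hairpin row and the other 5 as mature rows, with no explanation of the difference.

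Small RNA was sequenced from 3 adipocyte and 3 preadipocyte samples of Holstein cattle at passage 4 to 6, cultured with 10% fetal bovine serum and 1% antibiotics. The labels give adipose tissue as the source and describe induction with insulin, dexamethasone, rosiglitazone and IBMX, an adipogenic mixture. They print that sentence for all 6 samples, and only the cell type label separates adipocytes from preadipocytes, the precursor cells. The length of induction, the animals behind the replicates and any sorting are not given in the sources used here. Hence p-values measure only how far these samples spread, and that spread may be technical.

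A miRNA guides a protein complex to messenger RNAs that pair with its seed, a short stretch near its 5' end, and lowers their output. The members of the miR-29 family share their seed, and in mouse and human cells they repress many genes of the extracellular matrix, among them collagens, elastin and fibrillin. Transforming growth factor beta lowers miR-29 in mouse and human fibroblasts, and in mouse 3T3-L1 adipocytes added miR-29 reduces insulin-stimulated glucose uptake. RefSeq's gene table (assembly ARS-UCD2.0) served here for names and neighbours only, and in it the family had 6 genes in 3 neighbouring pairs. MIR29A stood beside MIR29B-1, and both overlapped the long noncoding RNA gene LOC107131356. MIR29B-2 stood beside MIR29C, between CD34 and CD46. MIR29E stood beside MIR29D, both overlapping the protein-coding gene LOC518224, on the other side of CD46. The deposited table has 1 row for miR-29b, so reads from its 2 genes could not be told apart.

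The 6 libraries held 14525284 to 22283754 reads in known and predicted miRNA rows, and miR-21-5p alone took 64% to 74.1% of them in adipocytes and 77.9% to 80.2% in preadipocytes. Levels below are counts-per-million of miRNA reads (CPM) after scaling with edgeR's TMM factors, which were 1.34, 1.40 and 1.02 in adipocyte replicates 1, 2 and 3 and 0.839, 0.846 and 0.734 in preadipocyte replicates 1, 2 and 3. On this scale a count of 0 allowed up to 0.142 to 0.153 CPM in adipocyte libraries and 0.183 to 0.244 CPM in preadipocyte libraries (3 counts per library, counting error only). Adipocyte replicate 3 and preadipocyte replicate 3 stood apart from the other libraries of their groups for several members, and results are given with and without them. Of the 10 mesenchymal miRNAs on the marker list, all 10 were found, and they took 70.9% to 79.1% of miRNA reads in adipocytes and 81.6% to 84% in preadipocytes, mostly through miR-21-5p. Protein markers of fat cells were not measured. Summed over their rows, 6 of 6 blood and 6 of 8 epithelial markers reached at most 1.23 and 1.09 CPM in adipocyte libraries and at most 4.97 and 2.39 CPM in preadipocyte libraries. The endothelial miR-126 summed to 43 to 67.9 CPM in adipocytes, against 114 to 455 CPM in preadipocytes. The 5 of 7 muscle markers found summed to 36.9 to 41.3 CPM in adipocytes, against 29.8 to 65 CPM in preadipocytes, and the 2 of 4 neural markers to 60.2 to 68.2 CPM in adipocytes, against 53.7 to 95 CPM in preadipocytes. The part of these cells in the results below was not tested, and in bulk samples fewer cells of a type and less RNA per cell cannot be told apart.

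Between adipocytes and preadipocytes, the design's only comparison, no member of the miR-29 family passed the test over all miRNAs. The member with the largest estimate was miR-29b, fitted as 5.67-fold higher in adipocytes, and that estimate rested on 2 of the 3 adipocyte libraries. For miR-29a, the other abundant member, the estimate was below 0 and its sign was not stable, and the scarce miR-29c was higher in every adipocyte library than in every preadipocyte library by a narrow gap. In edgeR's quasi-likelihood test with Benjamini-Hochberg (BH) adjustment at 0.05, 26 of 414 tested miRNAs (6.28%) passed, 3.86% as higher in adipocytes and 2.42% as lower. Of the 6 member rows, 4 were tested and 0 were called, and the 2 rows of miR-29d fell below the filter on low counts. Without adjustment 1 of the 4, miR-29b, was under 0.05 in edgeR's test, as were 141 of all 414. DESeq2 called 1 of the 4, miR-29b, where it called 24.1% of the 399 miRNAs it gave an adjusted p, and limma on the deposited TPM called 1, miR-29c, where it called 29.5% of 414, so both member counts were near the share over all miRNAs.

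**Figure D1:**
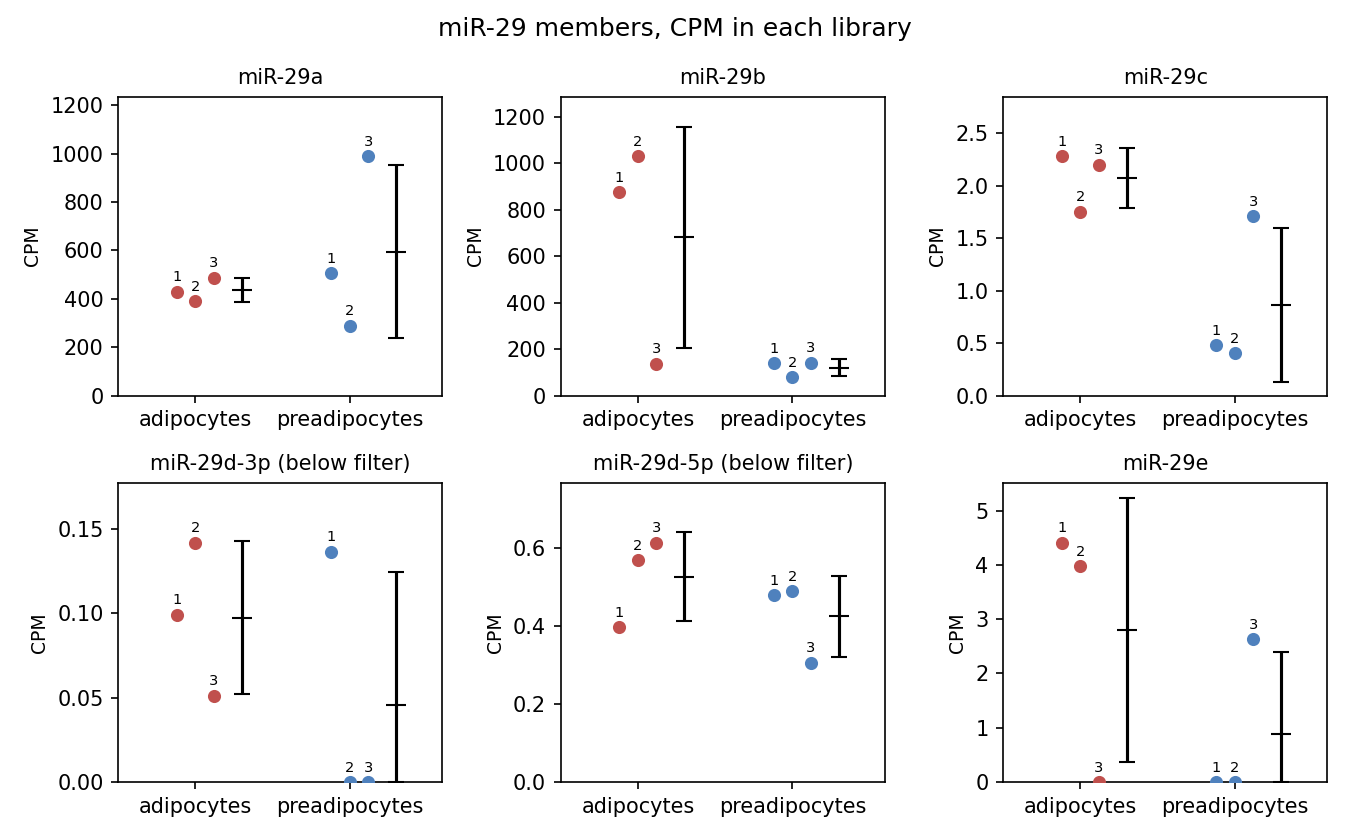
Level of each miR-29 member row in each library, in counts-per-million of miRNA reads (CPM) on the TMM scale, with adipocytes left and preadipocytes right; points are libraries numbered by replicate, and bars are the mean and SD of 3 libraries, cut at 0. For miR-29b, adipocyte replicates 1 and 2 stand far above the 4 other libraries, while for miR-29a preadipocyte replicate 3 is the highest library.

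The most abundant member in adipocytes was miR-29b, whose human form also represses the survival gene MCL1 and DNA methyltransferases. Adipocyte replicates 1, 2 and 3 held 17640, 21735 and 2701 of its reads, against 2041, 963 and 2326 in preadipocyte replicates 1, 2 and 3. As levels these were 874, 1029 and 138 CPM in adipocytes, against 140, 78.4 and 142 CPM in preadipocytes. Adipocyte replicates 1 and 2 were therefore high, and adipocyte replicate 3 lay inside the preadipocyte range. The mean level was 680 ± 476 CPM in adipocytes, against 120 ± 36 CPM in preadipocytes (SD, n = 3 each), rank 50 of 414 tested miRNAs in adipocytes and rank 96 in preadipocytes. The log2 difference was 2.50 (SE 0.73, 95% interval 0.75 to 4.26), and it did not pass (BH-adjusted p of 0.0721 by edgeR). With adipocyte replicate 3 left out it was 2.90, past the threshold (BH-adjusted p of 0.0239 by edgeR), as were 3.38% of all tested miRNAs. The library left out was the low one among the adipocytes, so a stronger result follows from the omission and is no separate support. Leaving out any other library gave a BH-adjusted p of 0.0875 to 0.21 by edgeR, past the threshold in none. The estimate stayed between 2.08 and 3.26 under 15 alternatives, with edgeR, DESeq2 or limma adjusted p from 0.00329 to 0.21, and it passed under 3 of them, which were the fit without adipocyte replicate 3, DESeq2 and the fit with library totals as the only scaling (23.4% of all tested miRNAs called).

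The other abundant member was miR-29a, encoded beside one copy of miR-29b. Adipocyte replicates 1, 2 and 3 gave 8655, 8248 and 9548 reads of it, against 7408, 3557 and 16186 in preadipocyte replicates 1, 2 and 3. The corresponding levels were 429, 390 and 488 CPM in adipocytes, against 506, 290 and 989 CPM in preadipocytes. The adipocyte libraries were close together and lay inside the preadipocyte range, of which replicate 3 was the upper end. Means were 436 ± 49.3 CPM in adipocytes, against 595 ± 358 CPM in preadipocytes (SD, n = 3 each), at rank 56 in adipocytes and rank 50 in preadipocytes. The log2 difference was -0.45 (SE 0.45, interval -1.53 to 0.64, BH-adjusted p of 0.499 by edgeR). The sign turned positive without preadipocyte replicate 3 (0.13), with library totals as the only scaling (0.22) and with limma on the deposited TPM (0.29).

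The scarcer miR-29c is encoded beside the other copy of miR-29b. Its counts were 46, 37 and 43 in the 3 adipocyte libraries by replicate number, against 7, 5 and 28 in the 3 preadipocyte libraries. On the CPM scale the levels were 2.28, 1.75 and 2.20 in adipocytes and 0.478, 0.407 and 1.71 in preadipocytes. All 3 adipocyte libraries were above all 3 preadipocyte libraries, with preadipocyte replicate 3 only just below the lowest adipocyte library. Of the 414 tested miRNAs, 44.7% had groups apart in this way and 24.2% had all adipocyte libraries above, so a gap of this kind was common. Means were 2.08 ± 0.285 CPM in adipocytes, against 0.866 ± 0.733 CPM in preadipocytes (SD, n = 3 each), and the log2 difference of 1.24 (SE 0.61) did not pass (BH-adjusted p of 0.19 by edgeR). With preadipocyte replicate 3 left out it was 2.21, past the threshold (BH-adjusted p of 0.0189 by edgeR), as were 30.0% of all tested miRNAs. That library was the preadipocyte library nearest the adipocytes, so a stronger result follows from the omission. Leaving out any other library gave 0.91 to 1.35, with 1.12 for adipocyte replicate 3. None of these passed (BH-adjusted p of 0.288 to 0.361 by edgeR).

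The cattle member miR-29e was counted in some libraries and not in others. By replicate number it had 89, 84 and 0 reads in the adipocyte libraries, against 0, 0 and 43 in the preadipocyte libraries. In CPM the libraries with reads stood at 4.41 and 3.98 in adipocytes and at 2.63 in preadipocytes, while the 3 libraries at 0 allowed at most 0.153 CPM in adipocyte replicate 3 and 0.205 and 0.244 CPM in preadipocyte replicates 1 and 2. Both groups thus held libraries with and without it, and the fitted log2 difference of 1.63 had a wide error (SE 1.84, BH-adjusted p of 0.552 by edgeR). It was 8.62 without preadipocyte replicate 3, where every preadipocyte library left is at 0 and the size depends on the prior count, and it did not pass (BH-adjusted p of 0.142 by edgeR).

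The 2 arms of miR-29d were near the limit of detection. The 5p arm had 8, 12 and 12 reads in the adipocyte libraries, by replicate number, against 7, 6 and 5 in the preadipocyte libraries. The 3p arm, which carries the family's seed in other mammals, had 2, 3 and 1 in adipocytes and 2, 0 and 0 in preadipocytes. No fold is given for it, because every library was at or under the floor of 3 counts. In sum the 5p row had 32 reads in adipocytes and 18 in preadipocytes, and the 3p row had 6 in adipocytes and 2 in preadipocytes. Reads of near-identical members can be assigned to another name by the counting, so a low count under one name does not show a low level of that RNA.

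By mean level the order in adipocytes was miR-29b, miR-29a, miR-29e, miR-29c, miR-29d-5p and miR-29d-3p, and in preadipocytes it was miR-29a, miR-29b, miR-29e, miR-29c, miR-29d-5p and miR-29d-3p. The SDs of miR-29b and miR-29a overlapped in adipocytes, as did those of miR-29e and miR-29c in both groups. In preadipocytes the range of miR-29d-5p also overlapped that of miR-29c. Between the abundant pair and the other 4 rows no library overlapped, since the lowest value of miR-29a or miR-29b was 78.4 CPM and the highest value of the others was 4.41 CPM.

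The make-up of the family's reads split the adipocyte libraries. In adipocytes, miR-29b made up 66.7% of the family's reads in replicate 1 (95% Wilson interval 66.1% to 67.3%), 72.2% in replicate 2 (71.7% to 72.7%) and 22% in replicate 3 (21.2% to 22.7%). In preadipocytes the shares were 21.6% in replicate 1 (20.7% to 22.4%), 21.3% in replicate 2 (20.1% to 22.5%) and 12.5% in replicate 3 (12% to 13%). These intervals treat each read as an independent draw and cover no spread between libraries. Reads without molecular identifiers are not independent molecules, so the intervals may be too narrow even for counting error. Adipocyte replicates 1 and 2 were the libraries with more miR-29b than miR-29a, and the share in adipocyte replicate 3 was close to that in preadipocyte replicates 1 and 2. The rows of miR-29c, miR-29d and miR-29e each held under 1% of the family's reads in every library.

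**Figure D2:**
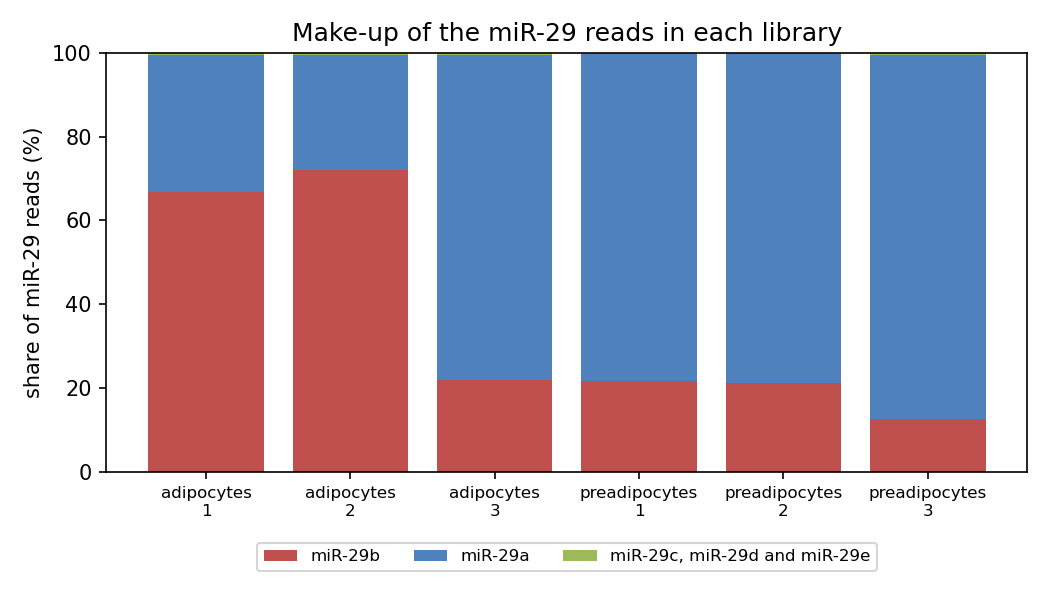
Share of the miR-29 reads held by miR-29b, by miR-29a and by the 4 other rows together, in percent, in each of the 3 adipocyte and 3 preadipocyte libraries. The share of miR-29b is 66.7% and 72.2% in adipocyte replicates 1 and 2 and at most 22% in the other libraries.

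A ratio of 2 members within a library needs no scaling between libraries. Reads of miR-29b over those of miR-29a came to 2.04, 2.64 and 0.283 in the adipocyte libraries, by replicate number, against 0.276, 0.271 and 0.144 in the preadipocyte libraries. The groups did not overlap, though adipocyte replicate 3 and preadipocyte replicate 1 were nearly equal. Among single miRNAs on the CPM scale, 44.7% of the 414 tested had groups apart. How many other ratios of miRNAs lay apart was not counted, so the gap is not shown to be particular to this pair. On the log2 scale the ratio averaged 0.20 ± 1.76 in adipocytes and -2.18 ± 0.54 in preadipocytes, a difference of 2.38 with a two-sided exact permutation p of 0.1 (n = 3 each), the smallest that 3 libraries against 3 can give. It was 1.78 without adipocyte replicate 2 and 3.39 without adipocyte replicate 3. No other pair of members had the 10 counts in every library set for a ratio.

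Summing the 6 rows removes the question of how reads were divided between their names. The summed reads were 26440, 30119 and 12305 in adipocytes, by replicate number, against 9465, 4531 and 18588 in preadipocytes. The groups overlapped, since preadipocyte replicate 3 held more than adipocyte replicate 3. In CPM of all miRNA reads, with no TMM factor, the family stood at 1759, 1993 and 643 in adipocytes, against 543, 312 and 834 in preadipocytes, and the mean of 1465 ± 721 in adipocytes and 563 ± 262 in preadipocytes gave an exact two-sided permutation p of 0.2 (n = 3 each). In a fit with all known miRNAs summed by family, the sum differed by 0.89 on the log2 scale (SE 0.50, interval -0.28 to 2.07) and did not pass (BH-adjusted p of 0.235 by edgeR), where 34 of 242 sums (14.0%) did. With miR-29b left out of the sum, an alternative chosen after seeing the data, the difference was -0.18 (BH-adjusted p of 0.782 by edgeR).

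**Figure D3:**
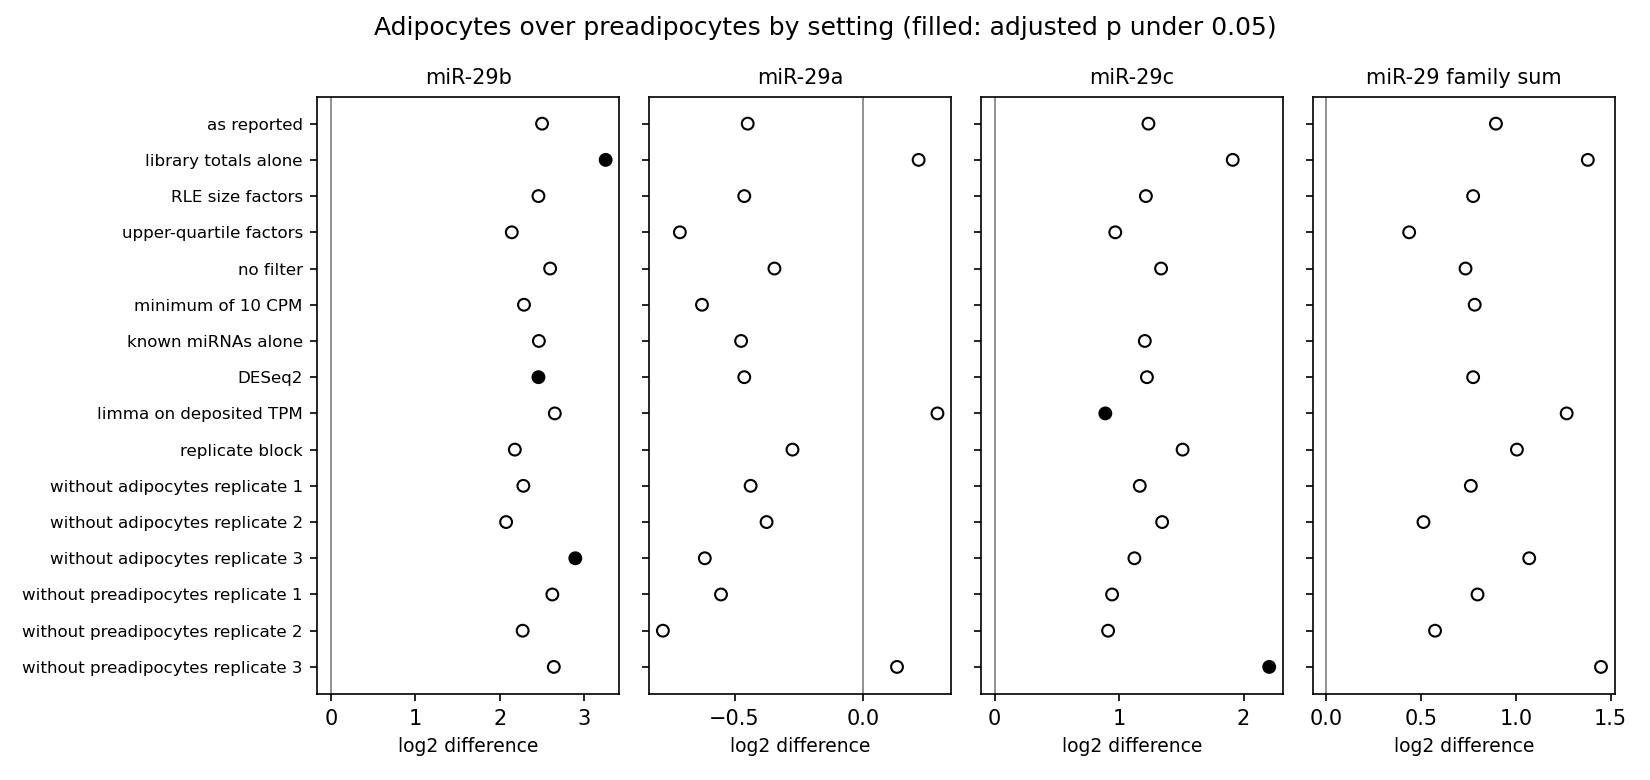
Log2 difference, adipocytes over preadipocytes, of miR-29b, miR-29a, miR-29c and the family sum as reported and under each other setting (own horizontal axis per panel, line at 0); filled points had an adjusted p under 0.05, and a point is missing where the setting gave no value. The estimates of miR-29b run from 2.08 to 3.26 and those of miR-29a lie on both sides of 0.

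The table also has an Rfam row for the mir-29 precursor family (RF00074), a separate set of reads or a recount of the same ones, which the sources used here do not say. This row gave 4082, 4213 and 4097 reads in adipocytes, by replicate number, against 2031, 2343 and 3957 in preadipocytes. It did not share the low value of miR-29b in adipocyte replicate 3, and its reads were 15.4%, 14% and 33.3% of the summed members in adipocytes and 21.5%, 51.7% and 21.3% in preadipocytes. Its deposited TPM, the count over a constant for each library, was 172, 174 and 146 in adipocytes and 75.1, 104 and 131 in preadipocytes. In a fit over the Rfam miRNA rows alone, scaled by those rows, it stood at 2166 ± 153 CPM in adipocytes, against 2343 ± 321 CPM in preadipocytes (SD, n = 3 each), a log2 difference of -0.11 (SE 0.22, BH-adjusted p of 0.76 by edgeR), and 3 of 92 such rows (3.26%) passed. The groups lay apart on the deposited TPM and overlapped after scaling by the Rfam rows, so the direction depends on that choice. On the deposited TPM the tested miRNAs as a whole also leaned to adipocytes, with a median log2 difference of 0.39. How many rows lay apart on that scale was not counted, so whether the gap is particular to this row is not known. The fit over the Rfam rows was added after seeing the data.

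**Figure D4:**
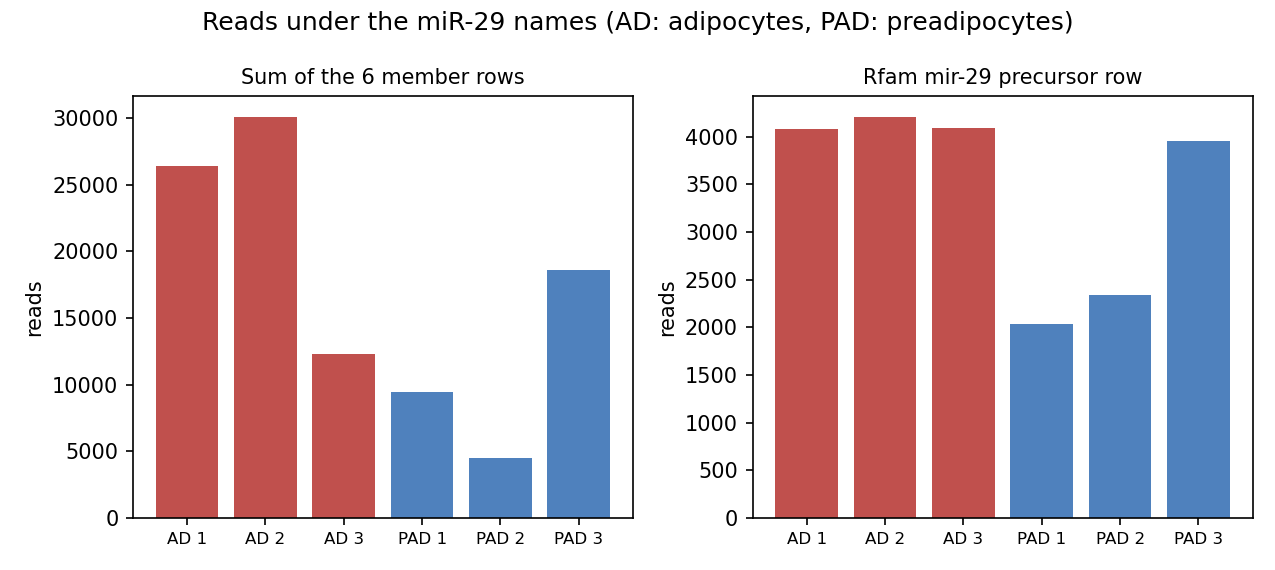
Reads per library summed over the 6 miR-29 rows (left) and in the Rfam mir-29 precursor row (right), with adipocyte libraries (AD) before preadipocyte libraries (PAD), not scaled for depth. The member sum in adipocyte replicate 3 is 12305 reads, against 26440 and 30119 in the other adipocyte libraries, while the Rfam row is 4082 to 4213 reads in all 3.

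For each tested member, the 3 known miRNAs outside the family with the closest profile were found among 199 with a mean of at least 10 CPM, by the root-mean-square difference of log2 CPM, each centred on its mean over the 6 libraries. The profiles closest to miR-29b were those of miR-101 (0.53 log2 units), miR-106b (0.58) and miR-193a-3p (0.61). Neighbours were chosen on these same 6 libraries, so a pattern shared with a member follows from the choice and is no separate support. Of the 3, miR-193a-3p was at 66.4, 78.9 and 14.2 CPM in the adipocyte libraries, by replicate number. In the preadipocyte libraries it was at 6.90, 2.04 and 8.31 CPM. The levels of miR-101 were 50.3, 45.8 and 17 CPM in adipocytes, against 9.36, 4.56 and 15.9 CPM in preadipocytes. Neither passed the test (BH-adjusted p of 0.0637 for miR-193a-3p and 0.0856 for miR-101 by edgeR).

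The profiles closest to miR-29a were those of miR-18a (0.20), miR-455-5p (0.21) and miR-450b (0.28). Like miR-29a, whose profile they were chosen to match, all were highest in preadipocyte replicate 3. The level of miR-18a was 47.4 CPM there and 16.5 to 31.9 CPM elsewhere. The profiles closest to miR-29c were those of miR-31 (0.12), miR-26c (0.21) and miR-381 (0.27). Levels of miR-31 were 177, 137 and 184 CPM in adipocytes, against 47, 35.8 and 115 CPM in preadipocytes. Nothing came close to miR-29e, whose nearest profiles, miR-148c, miR-193a-3p and miR-101, were 1.49, 1.68 and 1.69 log2 units away. No miRNA was among the nearest 3 of more than 1 of miR-29a, miR-29b and miR-29c.

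**Figure D5:**
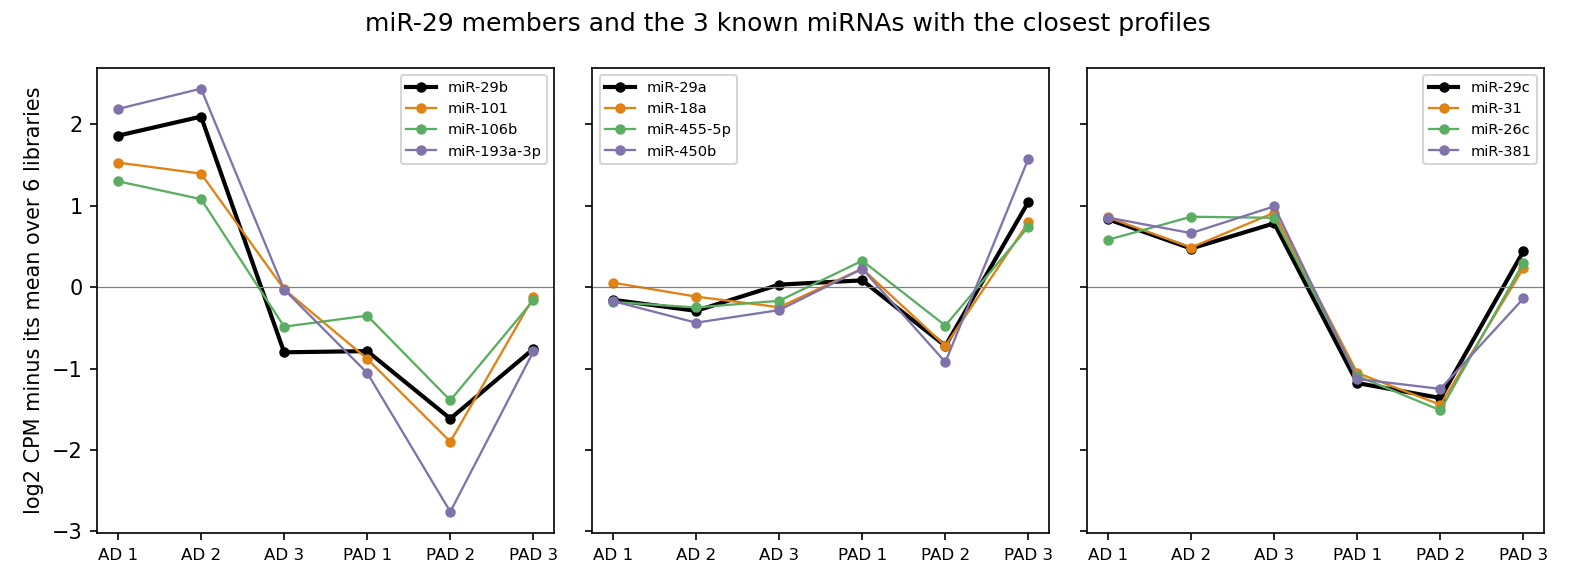
Log2 CPM of miR-29b, miR-29a and miR-29c (black) and of the 3 known miRNAs with the closest profile to each (colours), each minus its mean over the 6 libraries, in adipocyte (AD) and preadipocyte (PAD) libraries; lines only join points of 1 miRNA. The profile of miR-29b falls within the adipocyte libraries, at replicate 3, while that of miR-29a peaks at preadipocyte replicate 3. Neighbours were chosen to match these profiles, so their likeness follows from the choice.

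Other miRNAs described in mammals as restraining matrix genes or fibrosis include miR-133a and miR-26. Of 18 rows on that list 12 were tested, 0 rose and 1 fell, a count near the 6.28% called over all miRNAs, and the median log2 difference was 0.39, beside -0.02 over all 414. The one that fell was miR-133a, a muscle miRNA that represses connective tissue growth factor in rodent heart, at 1.63 ± 0.344 CPM in adipocytes, against 5.99 ± 1.46 CPM in preadipocytes (log2 difference -1.88, SE 0.34, BH-adjusted p of 0.0293 by edgeR), and its MIR133A-1 gene overlaps MIR133C. No row of the list passed when any 1 library other than preadipocyte replicate 3 was left out, where 1 to 14 of all 414 passed. Without preadipocyte replicate 3, 3 rose and 1 fell, where 30.0% of all tested miRNAs passed. With library totals as the only scaling, with DESeq2 and with limma on TPM, 2 rose and 1 fell. Over all miRNAs these settings passed 23.4%, 24.1% and 29.5%, so the list counts were near the shares over all miRNAs. The most abundant of the list were miR-26a and miR-98, a let-7 relative. Levels of miR-26a were 1312 ± 358 CPM in adipocytes, against 1427 ± 229 CPM in preadipocytes. Its MIR26A-1 gene overlaps MIR26C, and the miR-26c row was at 1951 CPM in adipocytes, against 780 CPM in preadipocytes. Levels of miR-98 were 1083 ± 247 CPM in adipocytes, against 938 ± 310 CPM in preadipocytes. The level of miR-26b was 1036 ± 12.9 CPM in adipocytes, against 533 ± 179 CPM in preadipocytes (0.96, SE 0.29, BH-adjusted p of 0.0788 by edgeR).

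Of 20 rows described as promoting fibroblast activation or fibrosis, all were tested, 1 rose and 0 fell, again near the 6.28% over all miRNAs, and the median log2 difference was -0.46. The split turned with the method, as did that of all miRNAs. With limma on TPM 5 rose and 0 fell, where 29.5% of all miRNAs passed (110 higher, 12 lower). With library totals 4 rose and 0 fell, where 23.4% passed (88 higher, 9 lower). With DESeq2 1 rose and 3 fell, where 24.1% of 399 passed (49 higher, 47 lower). A minimum of 10 CPM also gave 1 and 3, where 17.2% of 209 miRNAs passed (15 higher, 21 lower). These list counts were near the shares over all miRNAs. The one that rose was miR-199a-3p (log2 difference 8.70, SE 0.47, BH-adjusted p of 2.62e-04 by edgeR). Its reads are uncertain, because one of its genes, MIR199A-2, overlaps MIR3604-1. By replicate number, the row of miR-199a-3p held 156879, 125705 and 127960 reads in adipocytes, against 345, 124 and 244 in preadipocytes, while that of miR-3604 held 867, 766 and 145 in adipocytes, against 66523, 29642 and 51769 in preadipocytes. The abundant miR-21-5p, which is raised in fibrotic heart and lung of mice, differed by -0.82 (SE 0.23, BH-adjusted p of 0.0637 by edgeR), and miR-143 by -0.32 (SE 0.28, BH-adjusted p of 0.434 by edgeR). For miR-503-5p the level reached 11.2 ± 0.758 CPM in adipocytes, against 47.3 ± 36.8 CPM in preadipocytes (-2.08, SE 0.57, BH-adjusted p of 0.0637 by edgeR).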

How the data were processed

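Per the labels' protocols, Trizol RNA was size-selected on a gel at 18 to 30 nt and ligated to adapters before amplification. The submitters' processing notes name Bowtie2 without a version. The build, the miRNA release and the rule for reads with several matches are not given in the sources used here. Per the file headers, the deposited table gives a count and a TPM value per row and library. The authors' counts are whole reads without normalization. Their deposited TPM equals the count over a library constant, is not divided by length, and shows 0.001 in place of 0.

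Known (771) and predicted (108) miRNA rows were tested together with edgeR 4.0.16 in R 4.3.3 (TMM, filterByExpr, glmQLFit, glmQLFTest, two-sided, no term besides group, BH adjustment over the 414 rows kept). Rfam, piRNA and genome-feature rows, which may share reads or name no gene, stayed out. Family sums used the table's description column. Alternatives used DESeq2 1.42.0 and limma 3.58.1, the latter on log2(TPM + 1). Log2 CPM had a prior count of 2. Shares and ratios used exact permutation tests in SciPy 1.17.1. The edgeR fit was tested on simulated counts, and the summing of rows on a small example. The other steps were not tested in this way. Mature and hairpin sequences were not used here.

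Members, lists and tests were chosen with earlier results of these data known. Named miRNAs are all members, the 3 nearest profiles to each tested member, and from each list those called, the 2 of highest level and the 2 of lowest p. Libraries were not treated as paired by the replicate numbers in the titles, since deviations of same-numbered libraries did not correlate over all tested miRNAs.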

Additional observations from a re-analysis of the deposited data

How the results depend on the processing

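The count of miR-29 members past the threshold, 0 as reported, was 1 with library totals alone, with DESeq2 (miR-29b both times) and with limma on the deposited TPM (miR-29c), and 0 to 1 when a library was left out. The estimate of miR-29a was positive with library totals alone (0.22), with limma on TPM (0.29) and without preadipocyte replicate 3, and leaving out a library gave -0.78 to 0.13. The family sum kept its sign and did not pass in all alternatives except that it was -0.18 without miR-29b. Leaving out a library gave 0.51 to 1.45 for the sum, 638 to 1313 CPM of all miRNA reads for the difference in share and 1.78 to 3.39 for the log2 ratio of miR-29b to miR-29a. The 26 miRNAs past the threshold became 97 with library totals alone (88 higher, 9 lower), 49 with upper-quartile factors (15 and 34), 59 with known miRNAs alone (27 and 32), 96 with DESeq2 (49 and 47), 122 with limma on TPM (110 and 12) and 1 to 124 when a library was left out (1 each with adipocyte replicate 1, adipocyte replicate 2 and preadipocyte replicate 2 omitted, 4 without preadipocyte replicate 1, 14 without adipocyte replicate 3 and 124 without preadipocyte replicate 3). The median log2 difference of all miRNAs was 0.62 with library totals, -0.31 with upper-quartile factors, -0.23 with no filter and 0.39 with limma on TPM, against -0.02 as reported. The restraining list had 3 past the threshold with library totals, DESeq2 or limma on TPM (2 higher, 1 lower each time), 0 with no filter, a minimum of 10 CPM or the replicate block, and 0 to 4 when a library was left out (4 without preadipocyte replicate 3, 3 higher and 1 lower, and 0 without any other). The promoting list had 4 with library totals (4 higher, 0 lower), 3 with upper-quartile factors or known miRNAs alone (1 and 2), 4 with a minimum of 10 CPM or DESeq2 (1 and 3), 5 with limma on TPM (5 and 0) and 1 to 4 when a library was left out (2 without adipocyte replicate 3, 1 and 1, and 4 without preadipocyte replicate 3, 2 and 2). The cause of these shifts was not tested.

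With the replicate number as a block, 1 miRNA passed in place of 26, the members stayed at 0 and the family sum was 1.01 (edgeR BH-adjusted p = 0.325). The log2 ratio of miR-29b to miR-29a differed by 2.38 (exact permutation of paired signs, p = 0.25). That p is the smallest that 3 pairs can give. Over 414 miRNAs, deviations of same-numbered libraries from their group means correlated at -0.31 to 0.036, and 0 of 6 libraries correlated best with their own number. Single rows did set replicate 3 of both groups apart from replicates 1 and 2, among them miR-30c and miR-30f, and whether those libraries share a source was not tested. Grouping by seed was not run. Rows of miR-29c and miR-29e gave no value with a minimum of 10 CPM. Low counts limit what can be said of the rows of miR-29d, at 12 reads or fewer per library. The cause of these low counts was not tested.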

Other observations

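In the miR-30 family, looked up after the values were seen, reads also differed sharply between libraries of 1 group. By replicate number, miR-30c counted 5053, 3175 and 308 in adipocytes, against 2212, 1489 and 199 in preadipocytes. Its relative miR-30f counted 13, 13 and 3569 in adipocytes, against 12, 8 and 1754 in preadipocytes. The libraries low for miR-30c, replicate 3 of each group, were those high for miR-30f. In adipocyte replicate 3, where miR-29b was low, miR-29a stood at 488 CPM, the highest of the adipocyte libraries, with 429 and 390 CPM in replicates 1 and 2, and miR-29e had 0 reads. Whether reads moved between names in these families was not tested.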
